A study of Mus musculus with 16 samples.

Results

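A set of 6 microRNAs (miRNAs) of the vessel wall was followed in plasma extracellular vesicles (pEVs) of tauopathy mice: mmu-miR-126a-3p, mmu-miR-126a-5p, mmu-miR-143-3p, mmu-miR-143-5p, mmu-miR-145a-5p and mmu-miR-145a-3p. They were chosen by name, as both arms of miR-126a, miR-143 and miR-145a, with earlier results of these data known. They are 6 of the 15159 non-coding RNAs (ncRNAs) and of the 817 mature miRNAs listed. Small RNA was sequenced from the pEVs of 8 PS19 mice and 8 wild-type (WT) littermates, 1 library per mouse, to compare circulating ncRNA between the genotypes. PS19 mice were heterozygous for a transgene of human MAPT with the P301S mutation under the mouse prion protein promoter (Prnp), on a B6;C3 background, so every PS19 mouse carried the same insertion. Mice of both groups were about 9.6 months old, received no treatment that the labels name, and included equal numbers of males and females, but the sex of each mouse was not given in the labels. Vesicles were precipitated from 200 µL of EDTA plasma, which collects vesicles from all tissues and may carry along plasma proteins and lipoproteins.

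A miRNA gene is transcribed as a hairpin that is cut to 2 short strands, the 5p and 3p arms, and one of the arms is usually kept in the silencing complex, where its seed pairs with target mRNAs. miR-126a is known as a miRNA of endothelial cells, where it sustains growth factor signalling and vessel integrity. miR-143 and miR-145a are made together and are known as miRNAs of smooth muscle cells, where they favour the contractile state over proliferation. These assignments are background, since vesicles hold no cells against which the label could be checked. In such a mixture, fewer vesicles from a cell type and less RNA per vesicle cannot be told apart.

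The gene of miR-126a lies on the plus strand of chromosome 2 at 26591357 to 26591429 (mm10, GRCm38), inside Egfl7 (26580014 to 26593120), which encodes a protein secreted by endothelial cells. Of 19 Egfl7 transcripts in GENCODE, 9 span the hairpin, 8 with an intron and 1 with an exon there. The RefSeq hairpin (GRCm38.p6) is shown because both arms are cut from it, with miR-126a-3p in capitals at positions 46 to 67. The mature miR-126a-3p and the 5 miRNAs whose levels followed it most closely across the libraries are shown next with the seed, bases 2 to 8, in capitals, because none of the 5 shared its seed. Of 1679 mature mouse entries in RefSeq, only miR-126a-3p itself carried this seed.
Mir126a hairpin: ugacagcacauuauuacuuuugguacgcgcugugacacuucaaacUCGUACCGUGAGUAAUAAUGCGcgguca
mmu-miR-126a-3p: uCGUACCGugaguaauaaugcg
mmu-miR-28a-3p: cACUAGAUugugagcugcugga
mmu-miR-21c: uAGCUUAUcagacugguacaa
mmu-miR-10b-5p: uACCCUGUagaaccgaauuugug
mmu-miR-214-3p: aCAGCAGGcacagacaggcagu
mmu-miR-92a-3p: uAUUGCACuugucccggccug

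Levels are given as normalized counts, which the authors obtained by scaling the reads of every library with a DESeq2 size factor. Libraries held 36220722 to 117583663 reads assigned to ncRNAs, of which mature miRNAs took 0.0631% to 7.40%, or 51467 to 2681285 reads. These totals are sums over entries, and some entries share reads, such as miR-486a-5p and miR-486b-5p. Totals and percents may therefore count some reads more than once. PS19 replicates 4 and 1 had the fewest mature miRNA reads (51467 and 69476) and WT replicate 2 the most. For most members the limma log2 fold change on the authors' scaling is also given without PS19 replicates 1 and 4, as is the arm ratio of miR-126a. Shares of mature miRNA reads were not compared without these libraries. The sum of normalized mature miRNA counts had a median of 463188 in PS19 and 691854 in WT libraries. The log2 difference of means was -0.89 (exact permutation test, two-sided p = 0.0564, n = 8 per group). The lowest sum was 102095 in PS19 and 443606 in WT libraries, and this difference was not computed without PS19 replicates 1 and 4. All PS19 library names begin with 1 letter, which only WT replicates 2 and 4 share, so genotype and whatever the letter stands for cannot be told apart in the other WT libraries.

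On the authors' scaling all 6 members had lower mean normalized counts in PS19 than in WT pEVs, with the largest differences for the arms of miR-145a, although both arms of miR-126a turned positive when scaled to mature miRNA totals. miR-145a-3p fell 3.09-fold, miR-145a-5p 4.10-fold and miR-143-3p 2.21-fold at a raw p under 0.05, while both arms of miR-126a had a log2 fold change of -0.75 and did not pass the same test. These calls depend on the scaling, the tool and the libraries kept. With mature miRNA totals all 3 were lost. Within the libraries that share a name letter all 3 were lost as well. There, with 2 WT libraries, the log2 fold changes were of like size (-1.12 for miR-143-3p, -2.40 for miR-145a-5p and -1.80 for miR-145a-3p). Centring lost the calls of miR-143-3p and miR-145a-3p, and size factors from miRNA entries lost that of miR-143-3p. DESeq2 lost the call of miR-145a-5p and gained that of miR-126a-3p. The test was limma on log2(normalized count + 1) over all 15159 ncRNAs, so a fold change is on that scale. Thus 3 of the 6 were called lower, against 2.13% of all ncRNAs (323 of 15159) and 9.59% of the 219 mature miRNAs whose normalized counts averaged 10 or more (21 of 219), a group to which 5 members belong. In the exact permutation test 4 of the 6 had a two-sided p under 0.05 and were lower, against 1.92% of all ncRNAs and 9.13% of those 219 mature miRNAs. miR-143-3p and both arms of miR-145a, called in both tests, come from neighbouring hairpins, so their calls are not independent of each other. None passed the Benjamini-Hochberg adjustment in limma (adjusted p = 0.829 for 5 members and 0.871 for miR-143-5p), nor did any of the 735 ncRNAs with a raw p under 0.05.

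**Figure D1:**
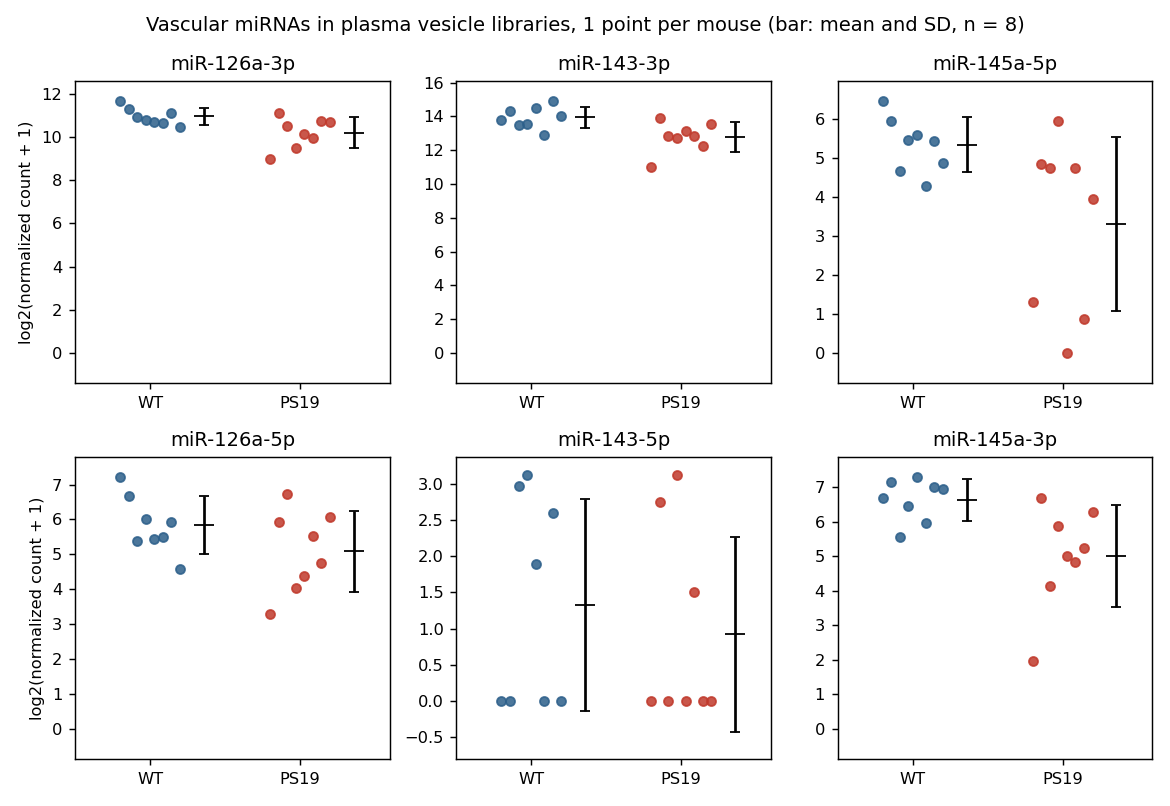
Each panel plots log2(normalized count + 1) of 1 member, with 1 point per library in replicate order, for WT (blue) and PS19 (red), and with the mean and SD of the 8 libraries in black. On this scaling the PS19 mean is lower in every panel, with overlap in each (for miR-126a the sign depends on the scaling), and 5 PS19 libraries lie below all WT libraries for miR-143-3p and for miR-145a-3p.

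miR-143-3p was the most abundant of the 6, holding ranks 5 to 13 among the mature miRNAs of a library. Its normalized count ran from 2090 to 15633 with a median of 7308 in PS19 libraries, and from 7788 to 30618 with a median of 15578 in WT libraries. In PS19, 5 libraries were below every WT library, and 4 WT libraries were above every PS19 library, although the groups overlapped. The means were 8172 ± 4211 and 17086 ± 7443 (SD, n = 8 each). The log2 fold change was -1.15 (SE 0.470, limma raw p = 0.0219), and the exact permutation test gave a two-sided p of 0.00730.

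The other arm of the same hairpin, miR-143-5p, was nearly absent, with 36 reads against 268165 of miR-143-3p. It was found in 3 PS19 libraries (12 reads in all) and 4 WT libraries (24 reads), with at most 8 reads in a library. The mean normalized count was 1.90 ± 3.07 in PS19 and 2.79 ± 3.32 in WT libraries (SD, n = 8 each), both under the normalized count of a library with 3 reads (mean 4.01 for PS19 and 2.85 for WT), so no fold is given. A difference between the genotypes was not detectable at this depth (limma raw p = 0.555, exact permutation test two-sided p = 0.550).

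miR-145a-3p ranged from 2.94 to 103 with a median of 34.1 in PS19 libraries, and from 45.9 to 157 with a median of 112 in WT libraries. All 8 PS19 libraries were below the WT median, and 5 of them were below every WT library. The log2 fold change was -1.63 (SE 0.557, limma raw p = 0.00709), and the exact permutation test gave a two-sided p of 0.00637. The mean was 44.1 ± 33.1 in PS19 and 105.6 ± 39.0 in WT libraries (SD, n = 8 each).

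miR-145a-5p, the arm usually described as the active strand of this hairpin, ranged from 0 to 61.4 with a median of 20.1 in PS19 libraries, and from 18.5 to 87.5 with a median of 42.9 in WT libraries. In PS19, 3 libraries stood far below the others, replicate 5 with 0 reads and replicates 1 and 7 with 1 read each, whereas PS19 replicate 4 was the highest of its group. A count of 0 among the 813317 mature miRNA reads of replicate 5 allows a share of up to 0.000369%, counting error only. The log2 fold change was -2.04 (SE 0.719, limma raw p = 0.00868), and the exact permutation test gave a two-sided p of 0.0249. Its call rests on 609 reads in all, 124 in PS19 and 485 in WT libraries. The mean was 19.7 ± 20.6 in PS19 and 44.1 ± 22.2 in WT libraries (SD, n = 8 each), and the size of the log2 fold change depends on the 1 added, being -2.65 with 0.1 in its place. With DESeq2 on the reads the log2 fold change was -1.21 and the call was lost (raw p = 0.0882, against 0.0249 in the exact permutation test above).

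miR-126a-3p held ranks 26 to 44 among the mature miRNAs, and its normalized count ran from 507 to 2201 with a median of 1288 in PS19 libraries and from 1421 to 3225 with a median of 1850 in WT libraries. In PS19, 4 libraries were below every WT library, and 2 WT libraries were above every PS19 library. The means were 1293 ± 563 and 2042 ± 590 (SD, n = 8 each). The log2 fold change of -0.75 (SE 0.419) had a raw p of 0.0849 in limma, which pools the spread over ncRNAs of like level, and a two-sided p of 0.0169 in the exact permutation test of this miRNA alone. DESeq2 called it lower (log2 fold change -0.66), as did limma in 10 of the 16 fits that left out 1 library.

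miR-126a-5p, known to act on other mRNAs than the 3p arm, ranged from 8.82 to 104 with a median of 35.5 in PS19 libraries, and from 22.7 to 148 with a median of 51.9 in WT libraries. Only 3 PS19 libraries were below every WT library. Its log2 fold change of -0.75 (SE 0.528) was within the spread between mice (limma raw p = 0.166, exact permutation test two-sided p = 0.161).

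Among the 6, the order of the mean normalized counts over 16 libraries was miR-143-3p, miR-126a-3p, miR-145a-3p, miR-126a-5p, miR-145a-5p and miR-143-5p. miR-143-3p exceeded miR-126a-3p in 16 of 16 libraries. The neighbours miR-145a-3p, miR-126a-5p and miR-145a-5p had overlapping ranges in both genotypes. Mature miRNAs are of nearly equal length, but how well each is ligated into a library is not known from these data, so the order is one of reads.

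The deposited table also lists a precursor entry for each hairpin. For miR-126a and miR-143 these entries held 381 reads each, 1.09% and 0.142% of all reads of the hairpin. For miR-145a the precursor entry held 1250 reads, 35.7% of its reads, and more than the 5p arm. The precursor entry of miR-145a was lower in PS19 as well, with a median normalized count of 27.0 against 67.6 in WT libraries and a log2 fold change of -1.67 (SE 0.582, limma raw p = 0.00800 and adjusted p = 0.829, exact permutation test two-sided p = 0.00855). The log2 fold changes of the other precursor entries were -0.41 for miR-126a (exact permutation test, two-sided p = 0.398) and -0.70 for miR-143 (p = 0.116). Of the near-identical miR-145b, 1 read was found in 16 libraries, and how the authors' counting treated reads that match both was not given in the sources used here.

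Most mature miRNAs moved in the same direction as the members. Of the 219 mature miRNAs with a mean of at least 10, 203 had a negative and 16 a positive log2 fold change, and their median was -0.64, whereas the median over all ncRNAs was -0.01. The median of the 5 members other than miR-143-5p was -1.15. Within the 219, 1 miRNA had a more negative log2 fold change than miR-145a-5p and 4 had one more negative than miR-145a-3p, but 29 did so for miR-143-3p and 88 for miR-126a-3p. Relative to the median of the 219, the difference was -0.11 for miR-126a-3p and for miR-126a-5p, -0.50 for miR-143-3p, -0.98 for miR-145a-3p and -1.39 for miR-145a-5p, all on the log2 scale.

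When the reads of a member were divided by all mature miRNA reads of the library, the log2 difference between the genotypes was smaller for miR-143 and miR-145a and changed sign for miR-126a. miR-126a-3p took 0.352% ± 0.177 of the mature miRNA reads in PS19 and 0.290% ± 0.0566 in WT libraries (SD, n = 8 each), and its log2 difference became 0.14 (exact permutation test, two-sided p = 0.606). The share of miR-143-3p was 2.04% ± 0.858 in PS19 and 2.49% ± 1.17 in WT libraries, a log2 difference of -0.25 (exact permutation test, two-sided p = 0.412). For miR-145a-3p the shares were 0.0103% ± 0.00830 and 0.0153% ± 0.00625, with a log2 difference of -0.79 and the smallest p of the 6 (exact permutation test, two-sided p = 0.0786). For miR-145a-5p the log2 difference was -1.25 (exact permutation test, two-sided p = 0.189), but its mean share was higher in PS19 (0.00681% ± 0.0105) than in WT libraries (0.00578% ± 0.000952), as PS19 replicate 4 alone reached 0.0311%. The mean share of miR-143-5p was also higher in PS19, 0.000608% against 0.000440%, but this direction rests on 2 reads in PS19 replicate 4 (0.00389%). The median share was 0% in PS19 and 0.000187% in WT libraries. The precursor entry of miR-145a differed by -0.87 on this scale (exact permutation test, two-sided p = 0.0429). Those of miR-126a and miR-143 turned positive, 0.43 and 0.14 (exact permutation test, two-sided p = 0.402 and 0.815). With this scaling 0 of the 6 had a raw p under 0.05 in limma, against 0.699% of all ncRNAs and 0.457% of the 219 mature miRNAs called lower, and 0 of the 6 in the exact permutation test.

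The median of all ncRNAs shifted with the scaling, from -0.15 with edgeR to 0.30 with mature miRNA totals (0.49 with the centring described next), and so did the median of the 219 mature miRNAs, from -0.89 with library totals to 0.20 with mature miRNA totals. Dividing a library by another total shifts all its miRNAs alike, so the gap between a member and this median is nearly fixed by construction under such scalings. DESeq2 and edgeR, which fit the reads themselves, gave a gap of -0.81 for miR-145a-3p, of -0.76 and -0.96 for miR-145a-5p, of -0.61 and -0.62 for miR-143-3p and of -0.21 and -0.20 for miR-126a-3p. Whether the lower total of mature miRNAs in PS19 pEVs had a part in the members' lower counts was not tested.

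**Figure D2:**
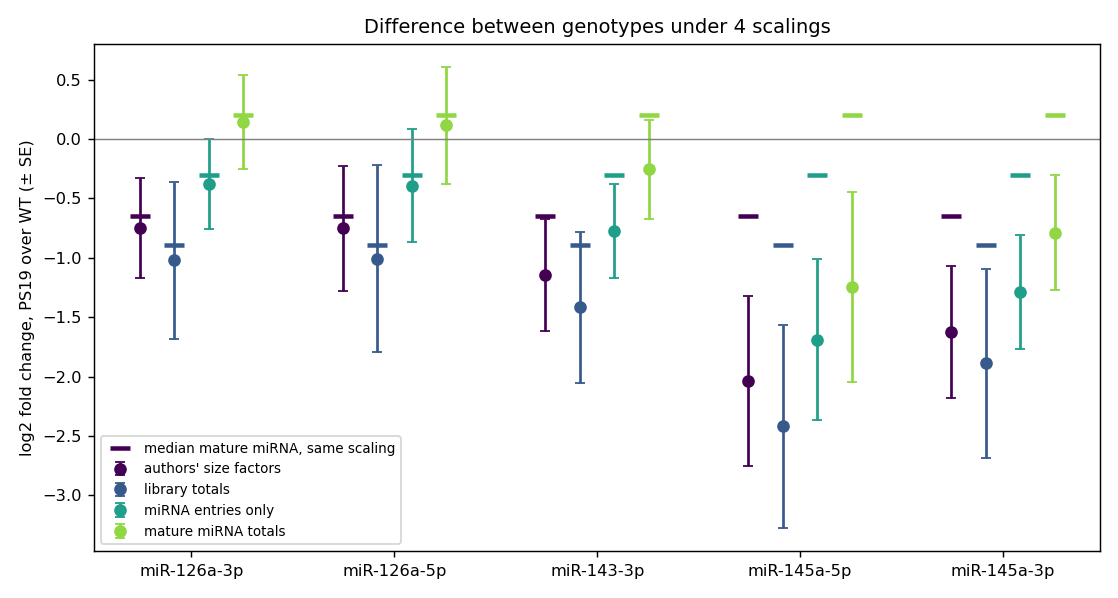
Points give the log2 fold change of PS19 over WT with its SE (limma, n = 8 per group) for 5 members (miR-143-5p, with too few reads, is left out) under 4 scalings, and the thick dashes give the median log2 fold change of 219 mature miRNAs under the same scaling. Points and dashes rise together from library totals to mature miRNA totals, as a change of scaling shifts all miRNAs of a library alike, and the points of miR-126a reach above 0 with mature miRNA totals.

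A further scaling, added after the data had been seen, centred each library on its median mature miRNA. The log2 difference was then -1.13 for miR-145a-3p, -1.54 for miR-145a-5p, -0.65 for miR-143-3p and -0.25 for both arms of miR-126a. The exact permutation test gave two-sided p values of 0.0179, 0.0623, 0.0319, 0.258 for miR-126a-3p and 0.511 for miR-126a-5p, in that order. In limma, miR-145a-5p alone kept a raw p under 0.05, against 0.099% of all ncRNAs and 1.37% of the 219 mature miRNAs called lower, and no adjusted p of a member passed.

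The comparison was repeated within the shared name letter. Within the 10 libraries that share the first letter, 8 PS19 and 2 WT, the log2 differences were of like size, -1.12 for miR-143-3p, -1.80 for miR-145a-3p, -2.40 for miR-145a-5p and -0.85 for miR-126a-3p. The exact permutation p values were 0.133, 0.0889, 0.133 and 0.0889. With only 2 WT libraries this permutation test has few arrangements and can hardly reach a p under 0.05, so it decides nothing here. No member had a limma raw p under 0.05, while the same limma fit called 5% of all ncRNAs lower (758 of 15159) and 2.74% of the 219 mature miRNAs (6 of 219). The 2 WT values were 11781 and 20245 for miR-143-3p, and 86.5 and 141 for miR-145a-3p. Without PS19 replicates 1 and 4, the libraries with the fewest miRNA reads, miR-143-3p (-0.84), miR-145a-5p (-2.15) and miR-145a-3p (-1.27) kept a raw p under 0.05 in limma, and the log2 fold changes of miR-126a-3p and miR-126a-5p were -0.43 and -0.28.

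Where both arms of a hairpin have reads, their ratio hardly depends on the scaling. The arm ratios of miR-126a and miR-145a did not differ between the genotypes beyond the spread between mice. miR-126a-3p took 96.9% of the 34534 reads of its arms and was the more abundant arm in 16 of 16 libraries, by 13.8-fold to 65.8-fold. The log2 ratio of 3p over 5p was 5.11 ± 0.771 in PS19 and 5.11 ± 0.480 in WT libraries (SD, n = 8 each), a difference of 0.003 (exact permutation test, two-sided p = 0.996). miR-143 was used almost wholly as its 3p arm, which took 99.99% of its arm reads, and its ratio was not compared because 9 of 16 libraries had 0 reads of the 5p arm.

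For miR-145a the 3p arm took 72.9% of the 2250 arm reads and was the more abundant in 14 of 16 libraries. The exceptions were PS19 replicate 3, with 12 reads of 3p and 19 of 5p, and PS19 replicate 4, with 15 and 16. The log2 ratio was 1.70 ± 2.10 in PS19 and 1.29 ± 0.591 in WT libraries (SD, n = 8 each), a difference of 0.41 within the spread (exact permutation test, two-sided p = 0.597). That difference rests on PS19 replicates 5 and 7, being -0.063 without the first and 0.030 without the second, and it was 0.96 with 0.1 added in place of 1. In WT libraries the ratio of reads lay between 1.16 and 4.30, whereas in PS19 libraries it ran from 0.632 to 44, and replicate 5 had 38 reads of 3p and 0 of 5p. Across the 31 miRNAs with both arms at a mean of at least 10, 18 had more reads of the 5p arm, and 0% (0 of 31) had an arm ratio that differed between the genotypes at a raw p under 0.05 in limma, with a smallest adjusted p of 0.873.

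The ratio of the smooth muscle to the endothelial miRNA, miR-143-3p over miR-126a-3p, ran from 2.90 to 14.0 in reads, with medians of 7.26 in PS19 and 7.33 in WT libraries. Its log2 mean was 2.59 ± 0.575 in PS19 and 2.99 ± 0.667 in WT libraries (SD, n = 8 each). The difference of -0.40 was within the spread (exact permutation test, two-sided p = 0.224).

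**Figure D3:**
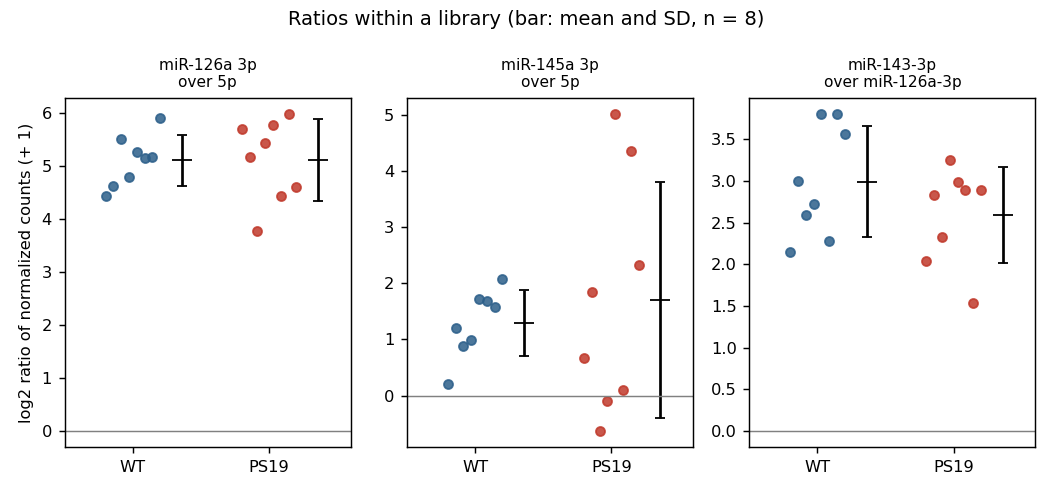
Each panel plots 1 log2 ratio of normalized counts (1 added to each) per library, for WT (blue) and PS19 (red), with the mean and SD of the 8 libraries in black, and a grey line at equal counts. Only the arm ratio of miR-145a crosses that line, in PS19 replicates 3 and 4, and the genotypes overlap in all 3 panels.

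miR-143 and miR-145a come from neighbouring hairpins on the minus strand of chromosome 18 (Mir143 at 61649196 to 61649258 and Mir145a at 61647825 to 61647894, mm10), 1301 bases apart. The long non-coding RNA gene Carmn (61649625 to 61665537), known as the host transcript of this cluster, ends 366 bases upstream of Mir143 in the annotation used. Across the 16 libraries miR-143-3p and miR-145a-3p rose and fell together (Pearson r = 0.90, permutation p = 1e-05, the smallest that 100000 resamples can give, Benjamini-Hochberg adjusted p = 0.00015 over 15 pairs of members; Spearman rho = 0.91). Without the 2 libraries farthest from the median of miR-143-3p, r was 0.83. Within PS19 libraries r was 0.88 (exact permutation p = 0.00702, n = 8) and within WT libraries 0.81 (exact permutation p = 0.0135, n = 8). On shares of mature miRNA reads r was 0.60 (raw permutation p = 0.0144), and none of the 15 pairs passed the adjustment on that scale. On the authors' scaling each was the closest of the 219 mature miRNAs to the other, but on shares miR-101a-3p was as close to miR-143-3p (r = 0.60).

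The arms of miR-126a correlated at r = 0.83 (permutation p = 5e-05, adjusted p = 0.000375; Spearman rho = 0.66, permutation p = 0.00637), with 0.77 within PS19 and 0.94 within WT libraries, and 0.64 without the 2 libraries farthest from the median of miR-126a-3p. On shares of mature miRNA reads r was 0.62 (permutation p = 0.00992). The endothelial miR-126a-3p and the smooth muscle miR-143-3p correlated at r = 0.74 (permutation p = 0.00108, adjusted p = 0.0054; Spearman rho = 0.64, permutation p = 0.00983), with 0.76 within PS19 libraries (exact permutation p = 0.0268, n = 8), 0.22 within WT libraries (exact permutation p = 0.601, n = 8), 0.51 without the 2 farthest libraries and 0.39 on shares (permutation p = 0.137). Likewise miR-126a-3p and miR-145a-3p correlated at 0.74 over all libraries (permutation p = 0.00204, adjusted p = 0.00765; Spearman rho = 0.64, permutation p = 0.00972), at 0.70 within PS19 libraries (exact permutation p = 0.050, n = 8), at 0.14 within WT libraries (exact permutation p = 0.735, n = 8), at 0.61 without the 2 farthest libraries and at -0.017 on shares. The arms of miR-145a correlated at 0.63 (permutation p = 0.0128, adjusted p = 0.0275; Spearman rho = 0.65, permutation p = 0.0071), at 0.42 within PS19 and 0.61 within WT libraries, and at 0.79 without the 2 farthest libraries. All points share the scaling of their library, and the median r with the 219 mature miRNAs was itself 0.59 for miR-126a-3p, 0.56 for miR-143-3p and 0.50 for miR-145a-3p.

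**Figure D4:**
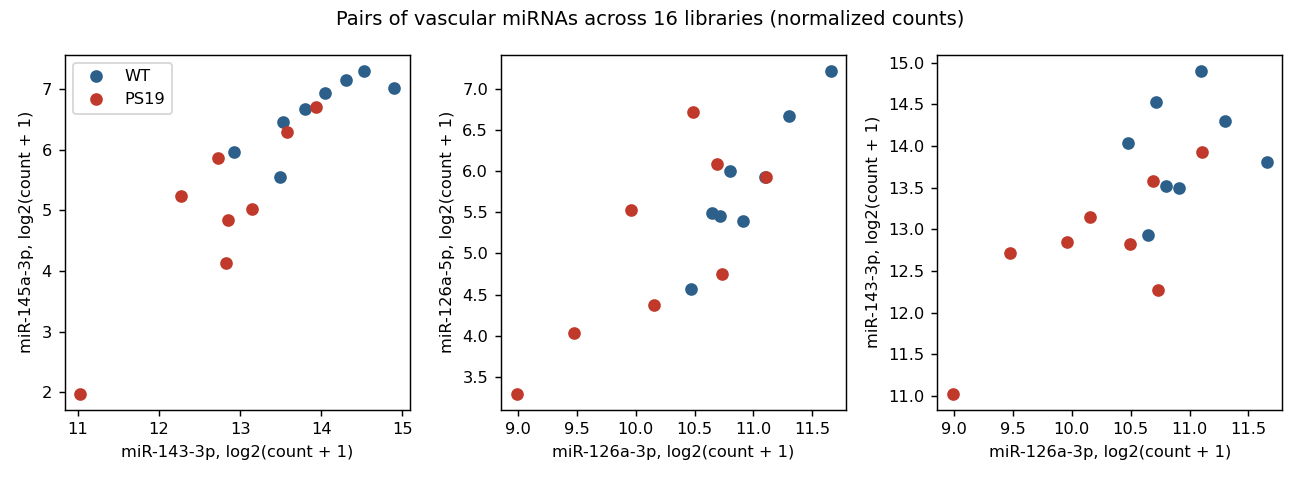
Each point is 1 of 16 libraries, WT in blue and PS19 in red, placed by log2(normalized count + 1) of 2 members. The points of miR-143-3p and miR-145a-3p form the tightest line (r = 0.90), and PS19 replicate 1 is the lowest point in all 3 panels.

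By the same measure the miRNAs closest to miR-126a-3p, whose sequences are printed above, were miR-28a-3p (r = 0.90), miR-21c (0.87), miR-10b-5p (0.84), miR-214-3p (0.84) and miR-92a-3p (0.83), given without a test since they were picked for this value. On shares of mature miRNA reads their r fell to between -0.06 and 0.26. miR-21c had 251 reads and differs little from miR-21a-5p with 60903, so its reads could belong to that miRNA. Next to miR-145a-3p, the closest to miR-143-3p were miR-101a-3p (0.86), miR-219a-1-3p (0.82), miR-676-3p (0.81) and miR-195a-3p (0.80), with 0.11 to 0.60 on shares. Next to miR-143-3p, the closest to miR-145a-3p were miR-99b-5p (0.86), miR-676-3p (0.83), miR-125a-5p (0.83) and miR-664-5p (0.83), with 0.32 to 0.54 on shares.

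The members were also set against how much miRNA a library held. Against log2 of the percent of reads in mature miRNAs, r was 0.73 for miR-126a-3p (permutation p = 0.00167, adjusted p = 0.0100 over 6 members; Spearman rho = 0.61, permutation p = 0.0138), 0.64 for miR-143-3p (adjusted p = 0.0209; Spearman rho = 0.60) and 0.61 for miR-145a-3p (adjusted p = 0.0209; Spearman rho = 0.59). Without the 2 farthest libraries r was 0.63, 0.64 and 0.74. Within WT libraries r was 0.45, 0.32 and 0.48, and within PS19 libraries 0.83, 0.73 and 0.59. For miR-126a-5p r was 0.61 (adjusted p = 0.0209, permutation), but Spearman rho was 0.46 (adjusted p = 0.114) and r without the 2 farthest libraries 0.45. No relation was found for miR-145a-5p (r = 0.18, permutation p = 0.493) or miR-143-5p (r = -0.13, permutation p = 0.623). Over the 219 mature miRNAs the median r was 0.61. The percent itself had a median of 0.589 in PS19 and 0.663 in WT libraries, and a mean of 0.705 and 1.70. On the log2 scale the difference of means was -1.16 (exact permutation test, two-sided p = 0.185, n = 8 each). The part of this percent in the members' difference was not tested.

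Other miRNAs known from vessel wall and stromal cells were set beside the members, without a test of the difference between the 2 sets. Of 12 arms of miR-221, miR-222, miR-199a, miR-199b, miR-214 and miR-21a, all measured, 11 had a negative and 1 a positive log2 fold change with a median of -0.32, and 1 was called lower by limma, miR-214-3p (-1.46, limma raw p = 0.0394, exact permutation test two-sided p = 0.0645). Among the 219 mature miRNAs 203 had a negative log2 fold change, the median was -0.64, and limma called 9.59% lower. The exact permutation test called 0 of the 12. miR-221 and miR-222 are endothelial and smooth muscle miRNAs tied to proliferation, and miR-221-3p and miR-222-3p had log2 fold changes of -0.38 and -0.68 (exact permutation test, two-sided p = 0.421 and 0.0842). miR-21a-5p, abundant in stromal and many other cells, had -0.32 (exact permutation test, two-sided p = 0.424), but on shares of mature miRNA reads its log2 difference turned to 0.58 and passed (exact permutation test, two-sided p = 0.0250). On that scale 1 of the 12 had a negative and 11 a positive difference, with a median of 0.40. The 3p arms of miR-199a and miR-199b had nearly equal counts (3154 and 3150 reads in WT libraries), so they count the same reads and enter these tallies and sums side by side. Together the 12 took 0.59% to 1.85% of mature miRNA reads in PS19 libraries and 0.41% to 0.89% in WT libraries.

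Marker miRNAs of other sources of plasma RNA were read in the same way, and on the authors' scaling the exact permutation test called none of them. On shares of mature miRNA reads it called miR-206-3p (log2 difference 2.68, exact permutation test two-sided p = 0.00559), a skeletal muscle miRNA, and miR-223-3p (1.58, p = 0.0179), a myeloid miRNA, both higher in PS19. Of 6 red blood cell arms 2 were called lower by limma, miR-486a-5p and miR-486b-5p, which share reads, and the median was -0.72. For comparison, limma called 2.13% of all ncRNAs and 9.59% of the 219 mature miRNAs lower. On shares 2 of the 6 had a negative and 4 a positive difference, with a median of 0.16. With shared reads counted under both entries, the 6 summed to 1.79% to 17.7% of mature miRNA reads in PS19 and 6.32% to 19.9% in WT libraries. Of 4 platelet and myeloid arms 0 were called on the authors' scaling (median -0.33, with 0.146% to 0.342% of mature miRNA reads in PS19 and 0.101% to 0.290% in WT libraries). On shares 1 had a negative and 3 a positive difference, with a median of 0.53. The liver miRNA miR-122-5p was called lower by limma (-1.57, exact permutation test two-sided p = 0.0805), 1 of 2 measured liver arms (2.99% to 24.5% in PS19 and 3.81% to 31.1% in WT libraries). Of 5 muscle arms miR-206-3p was called higher by limma (1.79, exact permutation test two-sided p = 0.0903), against 3 of the 219 mature miRNAs called higher. The 5 summed to 0.603% to 15.6% in PS19 and 0.512% to 9.02% in WT libraries. Of 5 neuronal arms 0 were called (median -0.57, with 0.373% to 5.37% of mature miRNA reads in PS19 and 0.319% to 1.62% in WT libraries). On shares all 5 had a positive difference, with a median of 0.32. No marker measured was at 0 in all libraries, and the part of these sources in the members' difference was not tested.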

How the data were processed

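The authors aligned single-end small RNA reads (NEBNext kit, Illumina NextSeq) to mm10 with STAR 2.5.3a, assigned them to ncRNAs with COMPSRA and normalized them with DESeq2 1.42.1. The deposited signal values are counts divided by size factors. Columns of the authors' own comparison (mean, fold change, standard error, statistic, p and adjusted p) were not used, nor were the cortical data. Dividing each library by the value of 1 read gave whole reads for 100% of the values (within 1e-06 of a read), and depths come from these.

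limma 3.58.1 (trend) on log2(normalized count + 1) was run over all 15159 ncRNAs in R 4.3.3, with Benjamini-Hochberg adjustment and a threshold of 0.05. The design compared PS19 with WT with no covariate. Single values and ratios had exact permutation tests (12870 arrangements and a smallest p of 0.0001554 for 8 libraries against 8, far fewer arrangements within the shared name letter). Correlations over 16 libraries used 100000 resamples. Alternatives were DESeq2 1.42.0 and edgeR 4.0.16 on recovered reads, other scalings, filters and a pseudocount of 0.1, leaving out each library and the replicate number as a block. Scripts were tested on simulated data. Members, marker lists and named miRNAs (the 5 with the highest Pearson r with each abundant arm) were chosen with earlier results of these data known. Intervals (95%, Wilson) and the limit of 3 reads cover counting error only, as reads had no molecular identifiers. Replicates are separate mice. No 2 libraries of a genotype agreed within sampling noise (0 of 56 pairs). Positions come from GENCODE M21 and sequences from RefSeq, in which 695 of 817 mature names matched.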

Additional observations from a re-analysis of the deposited data

Results flagged for a closer look

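In groups of 8 libraries, a highest or lowest value was marked when its gap to the nearest other library, divided by the range of the group, exceeded Dixon's 95% critical value. Of 32 groups checked 6 were marked, and chance marks about 1 in 20. Of these, 4 were in PS19 replicate 4, the library with the fewest mature miRNA reads. As shares of mature miRNA reads they were 0.0311% for miR-145a-5p (16 reads, 95% Wilson interval 0.0191 to 0.0505), with the next PS19 library at 0.0119%, 0.0291% for miR-145a-3p (15 reads, 0.0177 to 0.0481), with the next PS19 library at 0.0118%, and 0.00389% for miR-143-5p (2 reads, 0.00107 to 0.0142), with the next PS19 library at 0.000653%. WT libraries reached 0.0256% for miR-145a-3p and 0.00131% for miR-143-5p. The normalized count of miR-145a-5p in the same library was 61.4, and the next highest PS19 library had 27.9.

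In PS19 replicate 3 miR-126a-5p took 0.0477% of the mature miRNA reads (76 reads, 95% Wilson interval 0.0381 to 0.0597), and the next PS19 library had 0.00946%. In WT replicate 2 mature miRNAs took 7.40% of all reads, and the next WT library had 2.49%.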

How the results depend on the processing

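The calls of miR-143-3p, miR-145a-5p and miR-145a-3p held without any single library, with raw p up to 0.0262, 0.0392 and 0.0183 in limma. Leaving out 1 library at a time, log2 fold changes ran from -0.88 to -0.58 for miR-126a-3p, -0.98 to -0.50 for miR-126a-5p, -1.31 to -0.89 for miR-143-3p, -2.42 to -1.57 for miR-145a-5p and -1.87 to -1.19 for miR-145a-3p. The number of members called ran from 3 to 4 and of ncRNAs from 590 to 853. miR-126a-3p gained a raw p under 0.05 in 10 of the 16 fits, those without PS19 replicate 2, 3, 7 or 8 or WT replicate 3, 4, 5, 6, 7 or 8 (p from 0.0171 to 0.0499). The difference in log2 ratio ran from -0.12 to 0.19 for the arms of miR-126a, -0.063 to 0.74 for those of miR-145a and -0.52 to -0.25 for miR-143-3p over miR-126a-3p.

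With mature miRNA totals 0 members were called and the log2 fold changes were 0.14 for miR-126a-3p, 0.11 for miR-126a-5p, -0.25 for miR-143-3p, -1.25 for miR-145a-5p and -0.79 for miR-145a-3p. Size factors from miRNA entries gave -0.77 for miR-143-3p, no longer called (limma raw p = 0.0605, not a permutation p). Within the libraries sharing the first letter 0 members were called, with -1.12 for miR-143-3p, -2.40 for miR-145a-5p and -1.80 for miR-145a-3p, while 858 ncRNAs were called. Centred on the median mature miRNA, 1 member was called, with -0.65 for miR-143-3p and -1.13 for miR-145a-3p. DESeq2 gave -0.66 for miR-126a-3p, now called, and -1.21 for miR-145a-5p, no longer called (raw p = 0.0461 and 0.0882, from its count model and not a permutation). Without PS19 replicates 1 and 4, left out after the data had been seen, the arm ratio of miR-126a differed by -0.15. The cause of these changes was not tested.

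Against 735 ncRNAs with a raw p under 0.05, 454 were found with library totals, 1141 with mature miRNA totals, 1872 after centring, 230 with a mean of at least 10 (fewer tested) and 2295 with edgeR. The split was 412 higher and 323 lower on the authors' scale, 151 and 303 with library totals, 582 and 169 with miRNA entries, 1035 and 106 with mature miRNA totals, 100 and 758 within the shared letter (5 adjusted) and 1857 and 15 after centring. DESeq2 gave 113 and edgeR 318 adjusted p under 0.05, none of them a member. Of the 15 pairs 8 had an adjusted p under 0.05 over all libraries, 0 within PS19, 1 within WT and 0 on shares, where miR-126a-3p and miR-145a-3p had r = -0.017. Same-numbered libraries deviated together in 1 of 8 pairs (r over 0.1), so no pairing by number was seen, which does not show that the mice were unpaired. With the replicate number as a block 3 members and 685 ncRNAs were called. miR-143-5p was too low for the filter at 10, and counts of 0 or 1 read limit miR-145a-5p in PS19 replicates 1, 5 and 7, as 2 reads do miR-145a-3p in replicate 1.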
